A study of Mus musculus with 24 samples.

Results

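Lysosomal enzymes and membrane proteins were followed in the striatum of mice as 35 genes, taken as the rows of the deposited count table that carry their symbols, out of 54532 genes in the table. All 35 were found and all 35 passed the filter on low counts that left 19667 genes to test. They comprise 9 cysteine proteases, 3 aspartic or serine proteases, 10 glycosidases, 6 lipid hydrolases or their activators, 6 membrane proteins and the transcription factor Tfeb. RNA was sequenced from 24 C57BL/6 mice, 1 striatum sample from each, with 6 libraries per genotype (3 male, replicates 1 to 3, and 3 female, replicates 4 to 6). The WT group carried neither mutation. The TyrobpKO group lacked Tyrobp, whose product (DAP12) passes on signals from receptors such as TREM2 on microglia. The Q175 group was heterozygous for the Q175 allele, an expanded CAG repeat knocked into the mouse huntingtin gene and expressed from that gene's own promoter. The Q175_TyrobpKO group was heterozygous for the same allele and also lacked Tyrobp. The sources used here do not give the animals' age. The study asks what the Q175 allele changes with and without Tyrobp, and what the loss of Tyrobp changes with and without the Q175 allele.

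Lysosomes are acidic organelles in which hydrolases break down proteins, glycans and lipids delivered by endocytosis, phagocytosis and autophagy. Cathepsins are their main proteases, glycosidases and lipid hydrolases act in sequence on glycoconjugates and sphingolipids, and LAMP proteins line the limiting membrane. In brain, neurons, astrocytes and microglia all hold lysosomes, microglia are rich in several cathepsins, and inherited loss of many of these enzymes causes neurodegenerative storage disease. Tfeb, a basic helix-loop-helix factor, is known to bind E-box sequences near the start of many lysosomal genes.

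Total counts per library were 25.5 to 34.6 M. Tyrobp itself had a median of 7.74 CPM (counts scaled by library size with TMM factors, here and below) in WT and 9.15 in Q175, against 0.336 in TyrobpKO and 0.252 in Q175_TyrobpKO, so the libraries matched their Tyrobp labels. Of 12 markers of striatal projection neurons, 11 fell in Q175 against WT by edgeR's quasi-likelihood test, and their summed CPM had a median of 10562 in WT and 5608 in Q175. The summed CPM of 12 astrocyte markers had a median of 5219 in WT and 4397 in Q175; 3 of the 12 fell and 1 rose, with a median log2 fold change of -0.10. Without the 3 most abundant of them the sums had medians of 1024 and 1007. The RNA came from whole tissue, so fewer cells of a type and less RNA per cell cannot be told apart. Libraries also differed in the choroid plexus markers (10 genes): their summed CPM was 27.2 to 135 in the 12 libraries without the Q175 allele, above 135 in 5 libraries with it (2 of Q175 and 3 of Q175_TyrobpKO), and 4231 in Q175 replicate 3. The summed CPM of 8 markers of cortical excitatory neurons ranged from 63.4 to 993 over the libraries, with a median of 463 in WT and 322 in Q175. Animal names in the labels share 1 prefix in all 12 animals without Tyrobp and another in the 6 Q175 animals and WT replicate 3. The other WT animals carry a prefix different from both. Tyrobp genotype and whatever the prefix marks cannot be told apart. In Q175 against WT the allele and the prefix also go together, except for WT replicate 3. Q175_TyrobpKO against TyrobpKO lies within 1 prefix.

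The promoter sequences are shown first because many lysosomal genes carry an E-box to which Tfeb binds. RefSeq windows on GRCm38.p6, from 250 bases before to 50 after the start, matched 32 of the 35 genes; Asah1, Ctsh and Ctsb were not matched. The motif CACGTG, which reads the same on both strands, was in windows of 11 of these 32 genes (34.4%) and of 8.09% of all 27025 genes with a window. TCACGTG, read on both strands and always overlapping a CACGTG, was in 9 of 32 genes (28.1%) and in 4.29% of all genes. The 9 genes were Ctsa, Ctsd, Gaa, Gla, Glb1, Lamp1, Lgmn, Mcoln1 and Naglu. A match is a description of letters, not a bound site. Stretches of 28 bases around 1 match are given for 8 of the 9 genes, with CACGTG in capitals and each written 5′ to 3′ on the strand of the gene:
Ctsa (chr2:164833750-164833777, plus strand): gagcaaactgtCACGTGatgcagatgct
Ctsd (chr7:142387909-142387936, minus strand): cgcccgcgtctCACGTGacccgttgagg
Mcoln1 (chr8:3500437-3500464, plus strand): gtcgcgcttgtCACGTGttcagttcagg
Glb1 (chr9:114401019-114401046, plus strand): tgcttctgagtCACGTGgcctacagagg
Naglu (chr11:101070010-101070037, plus strand): aaccttcaggtCACGTGgcccgaggtcg
Gaa (chr11:119267812-119267839, plus strand): ttctgtgcgatCACGTGtttgactctga
Lgmn (chr12:102439125-102439152, minus strand): ggaatgtctgtCACGTGgtccattttat
Gla (chrX:134601216-134601243, minus strand): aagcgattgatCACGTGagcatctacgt

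The 250 bases before the starts of Lamp1 and Lamp2 are given whole because these sister genes, which encode the main glycoproteins of the lysosomal membrane, differ in this motif. Lamp1 held 4 copies of CACGTG, beginning 61, 45, 28 and 15 bases before the start, and Lamp2 held none:
Lamp1 (chr8:13158911-13159160, plus strand): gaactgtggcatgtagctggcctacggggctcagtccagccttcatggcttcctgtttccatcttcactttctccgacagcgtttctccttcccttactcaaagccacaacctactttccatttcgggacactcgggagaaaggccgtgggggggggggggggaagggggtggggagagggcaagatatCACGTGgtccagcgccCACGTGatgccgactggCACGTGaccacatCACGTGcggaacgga
Lamp2 (chrX:38456461-38456710, minus strand): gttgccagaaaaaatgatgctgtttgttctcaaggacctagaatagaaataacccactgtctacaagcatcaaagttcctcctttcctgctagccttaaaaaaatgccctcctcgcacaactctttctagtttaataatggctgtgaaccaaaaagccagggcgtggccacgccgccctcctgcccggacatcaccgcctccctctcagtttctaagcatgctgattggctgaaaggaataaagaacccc

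Levels in WT were compared between genes per kilobase of the length in the deposited table. That length equalled the union of the gene's exons in the GENCODE M21 annotation for 33 of the 35. It was shorter than that union for Ctsf and Lipa. The order between genes depends on this length. Psap, which encodes the precursor of the saposins that help lipid hydrolases reach their substrates, had 442 ± 19.3 CPM per kilobase (SD, n = 6), the highest of the 35. Lamp1 followed at 111 ± 8.90, then the cysteine protease Ctsb at 85.4 ± 4.44 and Gaa, the acid alpha-glucosidase that degrades glycogen, at 63.6 ± 5.34. Neighbouring genes in this order had WT ranges that overlapped in 27 of 34 pairs; Psap, Lamp1 and Ctsb each stood clear of the next gene below. Ctss and Ctsd, at 51.0 and 50.6 CPM per kilobase, did not differ beyond their spread. The lowest were Manba at 1.09 and Ctsc at 0.929. Over the 6 WT libraries the coefficient of variation had a median of 8.39% and ran from 3.89% for Ppt1 to 28.7% for Ctsk.

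In Q175 against WT, 7 of the 35 genes rose and none fell, at a Benjamini-Hochberg adjusted p under 0.05 in edgeR's quasi-likelihood test. They were the proteases Ctsl and Ctsd, the glycosidases Man2b1 and Gusb, the lipid hydrolase Smpd1, the granulin precursor Grn and the membrane protein Lamp2. Over all tested genes, 4.15% were called higher, 5.47% lower and 9.63% in either direction in this contrast. The 35 genes had a median log2 fold change of 0.15, 31 of the 35 estimates were above 0, and 20 had an unadjusted p under 0.05. Over all tested genes the median log2 fold change was 0.0073, 51.5% were above 0, and 4448 of 19667 had an unadjusted p under 0.05 by edgeR. All differences called were small: log2 fold changes of 0.20 to 0.34.

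**Figure D1:**
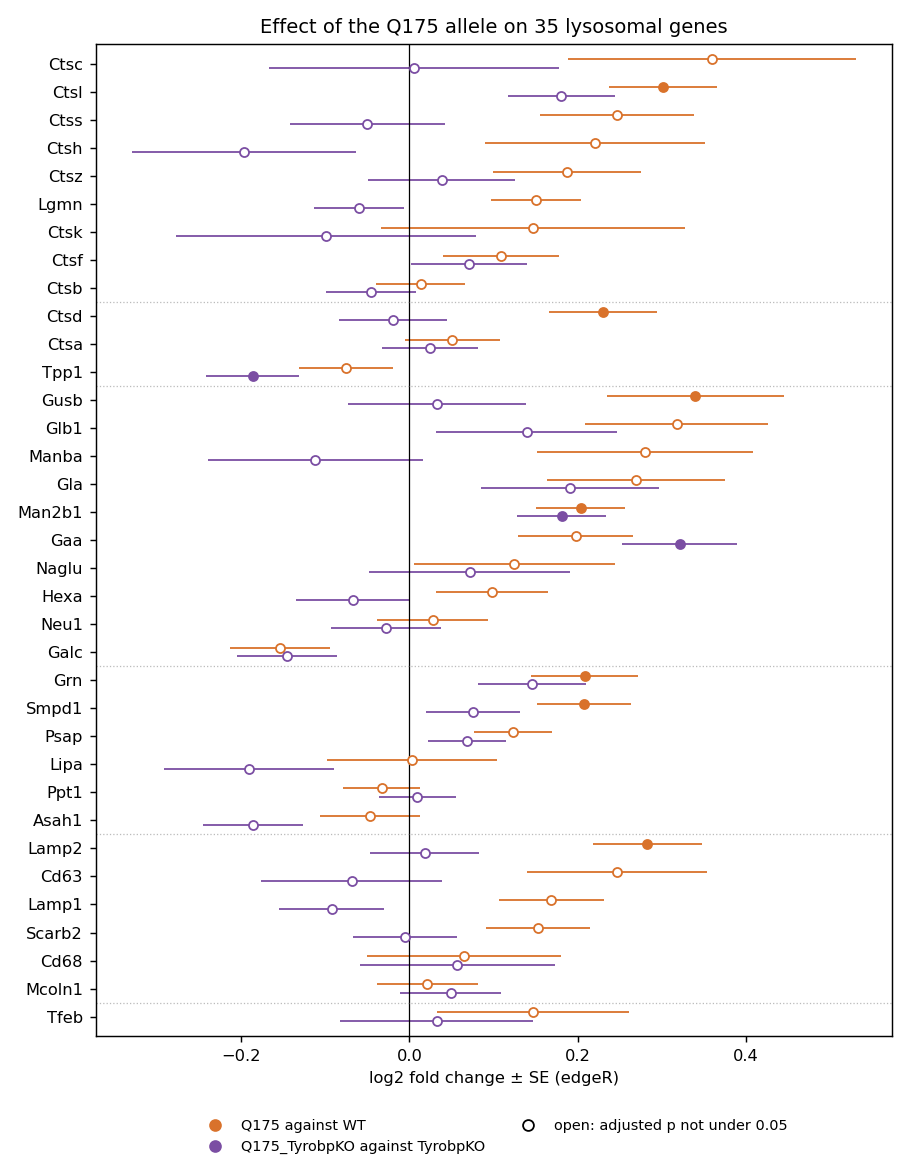
Log2 fold changes with standard errors (horizontal axis) of the 35 lysosomal genes, ordered within groups by role and separated by dotted lines, for Q175 against WT (orange) and Q175_TyrobpKO against TyrobpKO (purple), 6 libraries per genotype. Filled points had an adjusted p under 0.05: 7 in the first contrast, all to the right of 0, and 3 in the second, of which Tpp1 lies to the left.

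Of the 9 cysteine proteases, Ctsl rose and 8 did not pass the test, with a median log2 fold change of 0.19. Ctsl (ENSMUSG00000021477, chr13:64359337-64370890, minus strand) encodes cathepsin L, an endopeptidase of broad specificity. Its level was lowest 55.2, median 60.7 and highest 74.2 CPM in WT, against 69.2, 76.2 and 82.7 CPM in Q175. The groups overlapped through WT replicate 6 alone, and all 6 Q175 libraries lay above the WT median. The log2 fold change of Ctsl was 0.30 ± 0.06 (SE), with an adjusted p of 0.00231 in edgeR's quasi-likelihood test, and the gene stayed called when any 1 of the 24 libraries was left out. The other 8 had log2 fold changes from 0.01 for Ctsb to 0.36 for Ctsc. Ctsb, which encodes cathepsin B, ranged from 473 to 552 CPM in WT and from 462 to 591 in Q175, and its estimate of 0.01 had a 95% interval of -0.09 to 0.12. Ctss, a cathepsin enriched in microglia, gave 62.8, 67.5 and 78.6 CPM (lowest, median, highest) in WT and 60.9, 84.3 and 92.8 in Q175. In Q175, 5 of 6 libraries were above every WT library and replicate 1 was below them all. The estimate of 0.25 ± 0.09 (log2) had an adjusted p of 0.0905 by edgeR, and 0.0170 without Q175 replicate 1. Lgmn, the asparaginyl endopeptidase that processes other cathepsins, and Ctsc, which activates serine proteases, likewise passed when that library was left out and not when any other was, at edgeR adjusted p of 0.0337 and 0.0357.

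Of the 3 aspartic and serine proteases, Ctsd rose. Ctsd (ENSMUSG00000007891, chr7:142375911-142388038, minus strand) encodes cathepsin D, the main lysosomal aspartic protease. It gave 107, 120 and 131 CPM (lowest, median, highest) in WT and 114, 144 and 156 CPM in Q175. Except for Q175 replicate 1, every Q175 library was above every WT library. The log2 fold change was 0.23 ± 0.06 with an adjusted p of 0.0202 by edgeR; the adjusted p was 0.0535 without WT replicate 1 and 0.0700 without Q175 replicate 3. Ctsa, which encodes a carboxypeptidase that also protects beta-galactosidase and neuraminidase, had a log2 fold change of 0.05. Tpp1, a tripeptidyl peptidase lost in a childhood storage disease, had one of -0.08, and neither of the pair passed.

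Of the 10 glycosidases, Man2b1 and Gusb rose, with a median log2 fold change of 0.20 over the group. Man2b1 (ENSMUSG00000005142, chr8:85083270-85098282, plus strand) encodes lysosomal alpha-mannosidase and gave 49.7, 52.2 and 56.4 CPM in WT (lowest, median, highest) against 54.1, 61.5 and 67.4 in Q175. All 6 Q175 libraries were above the WT median and 4 were above every WT library. The log2 difference for Man2b1 was 0.20 ± 0.05, adjusted p 0.0131 by edgeR. That adjusted p was 0.0585 without the filter on low counts and 0.0644 with only the 12 libraries compared. Gusb (ENSMUSG00000025534, chr5:129989011-130003049, minus strand) encodes beta-glucuronidase and is among the less abundant of the 35, at 10.1, 11.3 and 14.6 CPM in WT and 13.1, 14.5 and 16.7 CPM in Q175. The ranges overlapped, with 3 of 6 Q175 libraries above every WT library. For Gusb the log2 fold change was 0.34 ± 0.11, adjusted p 0.0376 by edgeR, and leaving out any of WT replicates 1 to 4 or Q175 replicates 1, 5 or 6 gave adjusted p of 0.0553 to 0.0925. Glb1, the beta-galactosidase that removes terminal galactose from gangliosides, and Gaa had log2 fold changes of 0.32 and 0.20 with edgeR adjusted p of 0.0622 and 0.0643, and in both all 6 Q175 libraries exceeded the WT median. Glb1 passed without WT replicate 5 (0.0280) or Q175_TyrobpKO replicate 3 (0.0431) and by DESeq2 (0.0478), and Gaa without WT replicate 4 (0.0375) or Q175 replicates 1 (0.0428) or 5 (0.0421). Gla, Manba, Naglu, Hexa and Neu1 had log2 fold changes of 0.27, 0.28, 0.12, 0.10 and 0.03, and Gla passed edgeR's test without WT replicate 5 (adjusted p 0.0310). Galc, which degrades the myelin lipid galactosylceramide, was the only 1 of the 10 with an estimate below 0, at -0.15 (edgeR adjusted p 0.104), and passed as a fall without WT replicate 2 (0.0499) or Q175 replicate 5 (0.0456).

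Of the 6 lipid hydrolases and activators, Smpd1 and Grn rose. Smpd1 (ENSMUSG00000037049, chr7:105554360-105558389, plus strand) encodes acid sphingomyelinase and gave 61.9, 70.2 and 78.2 CPM in WT against 77.4, 81.7 and 86.3 in Q175. The ranges met only between the highest WT library and the lowest Q175 library. The difference was 0.21 ± 0.06 on the log2 scale, adjusted p 0.0163 by edgeR. For Smpd1 the edgeR adjusted p was 0.0515 without the filter on low counts and 0.0518 with only the 12 libraries compared. Grn (ENSMUSG00000034708, chr11:102430315-102437048, plus strand) encodes progranulin, a secreted protein that is cut to granulins in lysosomes, and gave 35.4, 38.1 and 40.8 CPM in WT against 42.5, 44.2 and 46.2 in Q175. The groups did not overlap. Grn had a log2 fold change of 0.21 ± 0.06, adjusted p 0.0355 by edgeR, and leaving out any of WT replicates 1, 4 or 5 or Q175 replicates 3, 4 or 5 gave adjusted p of 0.0614 to 0.0734. Grn overlaps Fam171a2 on the opposite strand, which held 57561 reads over all libraries to its own 26838, and whether counting used strand is not stated. Psap also separated the groups, at 1119, 1219 and 1270 CPM in WT and 1271, 1299 and 1420 in Q175, with a log2 difference of 0.12 ± 0.05 and an adjusted p of 0.0975 by edgeR and 0.0233 by DESeq2. Lipa, Ppt1 and Asah1, which encode acid lipase, a palmitoyl thioesterase and acid ceramidase, had log2 fold changes of 0.0034, -0.03 and -0.05.

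Of the 6 membrane proteins, Lamp2 rose. Lamp2 (ENSMUSG00000016534, chrX:38401357-38456454, minus strand) is needed for fusion of autophagosomes with lysosomes and gave 77.8, 84.3 and 90.3 CPM in WT against 91.2, 101 and 115 in Q175. Every Q175 library lay above every WT library. Lamp2 had a log2 fold change of 0.28 ± 0.07, adjusted p 0.00489 by edgeR. Lamp1 gave 269, 293 and 330 CPM in WT and 293, 338 and 375 in Q175. The log2 estimate for Lamp1 was 0.17 ± 0.06 with an edgeR adjusted p of 0.0890, which was 0.0378 without WT replicate 3 and 0.0368 without Q175 replicate 1. Cd63, a tetraspanin of late endosomes, Scarb2, the receptor that carries glucocerebrosidase to lysosomes, Cd68, a macrophage lysosomal glycoprotein, and the calcium channel Mcoln1 had log2 fold changes of 0.25, 0.15, 0.06 and 0.02, and Cd63 passed edgeR's test without Q175 replicate 1 (adjusted p 0.0321). Tfeb, whose product controls lysosomal gene expression, had a median of 10.9 CPM in WT and 11.7 in Q175, and the estimate of 0.15 (log2) had a 95% interval of -0.08 to 0.37.

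The groups did not overlap, with Q175 higher, for 3 of the 35 genes (Grn, Psap and Lamp2) and for 1.69% of all tested genes; none separated in the other direction, against 2.39% of all genes. Of the 9 genes with TCACGTG in the promoter window, 1 rose (Ctsd), and the median log2 fold change was 0.17. Of the 23 matched genes without it, 6 rose, with a median of 0.15. Each of the 20 microglial markers missed the test in this contrast (edgeR: 1 unadjusted p under 0.05; DESeq2: 0 called), and their summed CPM had a median of 519 (range 471 to 566) in WT and 546 (range 458 to 577) in Q175.

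**Figure D2:**
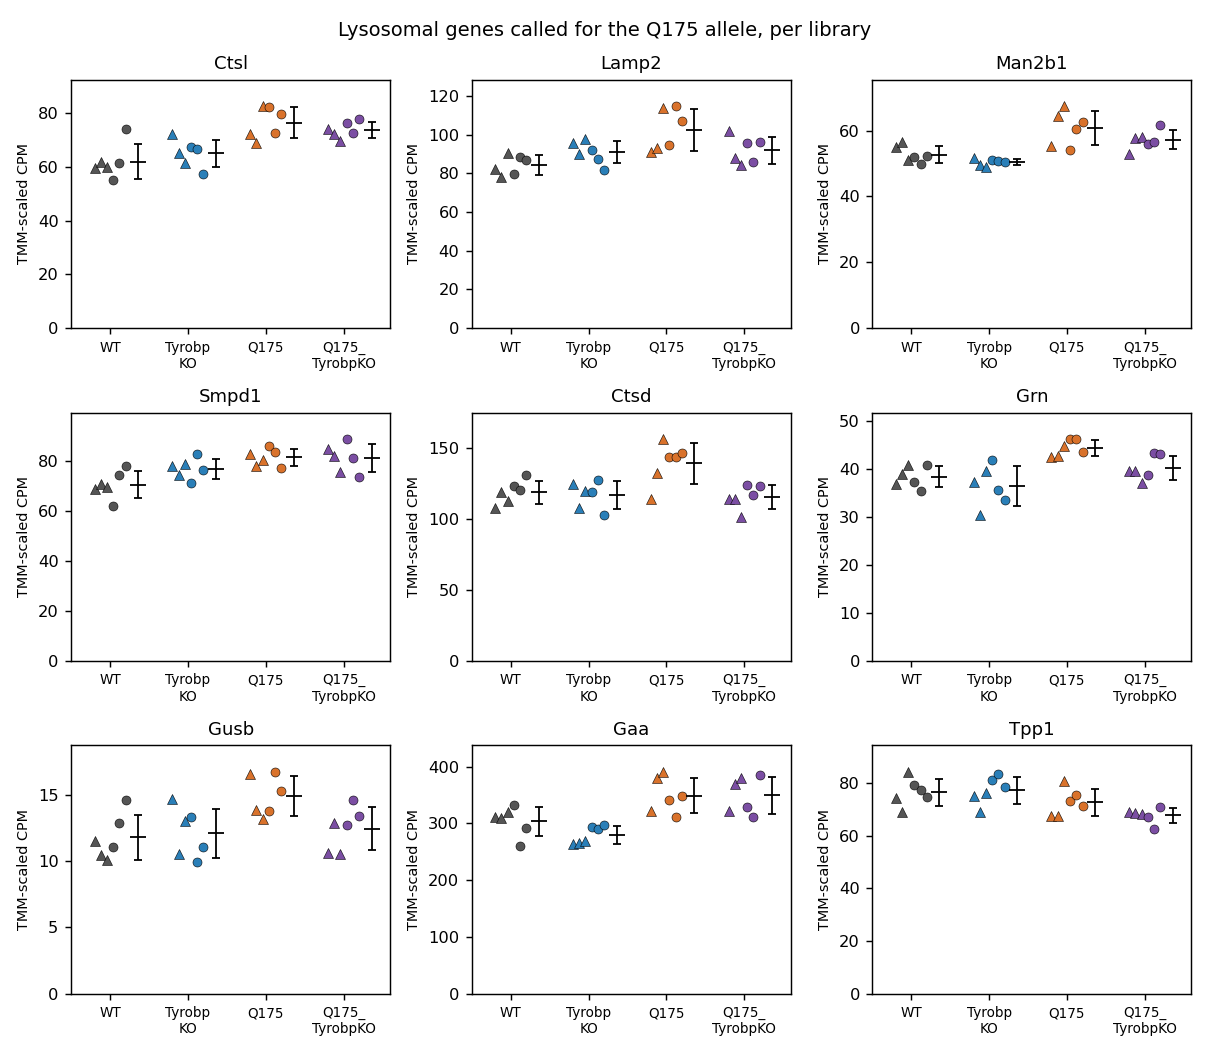
TMM-scaled CPM (vertical axes, from 0) of the 9 lysosomal genes called in either contrast for the Q175 allele, 1 point per library (triangles male, circles female), with the mean and SD of each genotype (n = 6) beside the points. Lamp2 and Grn separated Q175 from WT in all libraries, and Gaa and Man2b1 separated Q175_TyrobpKO from TyrobpKO.

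Q175 replicate 3, the library with a summed choroid plexus marker level of 4231 CPM, was the highest of the 6 Q175 libraries in 14 of the 35 genes, and replicate 1 was the lowest in 16. Of the Q175 libraries, replicate 1 had the highest summed cortical marker CPM (819) and the lowest of striatal projection neurons (4787). Without the 5 libraries above 135 CPM in the choroid plexus markers, 1 of the 35 genes was called in Q175 against WT, beside 5.51% of all genes tested in that setting. The gene was Ctsl, at a log2 fold change of 0.29 and an adjusted p of 0.0236 by edgeR. The other 6 then had log2 fold changes of 0.17 for Ctsd, 0.34 for Gusb, 0.17 for Man2b1, 0.20 for Smpd1, 0.19 for Grn and 0.20 for Lamp2, and their edgeR adjusted p lay between 0.0707 and 0.173. The limit of 135 CPM was the highest library without the Q175 allele, so only carriers of the allele could be left out. That setting left 4 Q175 and 3 Q175_TyrobpKO libraries. With the choroid plexus and cortical marker levels as covariates, 4 of the 35 were called (Ctsl, Smpd1, Lamp2 and Gaa), beside 9.49% of all genes. In each sex alone (3 against 3) the log2 fold changes of the 7 genes were all above 0, with 1 called in males and 0 in females by edgeR, beside 3.82% and 0.946% of all genes. The female minus male difference of the Q175 effect passed in none of the 35 genes, against 0% of all genes.

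Without Tyrobp, in Q175_TyrobpKO against TyrobpKO, Gaa and Man2b1 rose and Tpp1 fell, 3 of the 35 genes, against 5.86% of all tested genes in either direction, 2.78% higher and 3.08% lower. The median log2 fold change of the 35 was 0.0093, with 19 of 35 above 0; over all genes the median was -0.0019 and 49.6% were above 0. Gaa (ENSMUSG00000025579, chr11:119267887-119285454, plus strand) gave 264, 279 and 297 CPM in TyrobpKO against 311, 350 and 385 in Q175_TyrobpKO. The groups did not overlap. Gaa had a log2 fold change of 0.32 ± 0.07, adjusted p 0.00407 by edgeR, and it stayed called when any 1 library was left out, but not without the 5 libraries high in choroid plexus markers (0.27, adjusted p 0.109). Man2b1 gave 49.0, 50.5 and 51.7 CPM in TyrobpKO and 53.0, 57.2 and 61.7 in Q175_TyrobpKO, again with no overlap, a log2 fold change of 0.18 ± 0.05 and an adjusted p of 0.0390 by edgeR. Man2b1 was not called without the 5 libraries (0.14, edgeR adjusted p 0.363), with the marker covariates (0.13, adjusted p 0.142) or with upper-quartile scaling (0.19, adjusted p 0.0526). No overlap with the Q175 carriers higher held for these 2 of 35 genes and for 2.22% of all genes, and none of the 35 separated in the other direction (2.27% of all genes). Tpp1 (ENSMUSG00000030894, chr7:105744811-105752235, minus strand) gave 68.9, 77.3 and 83.3 CPM in TyrobpKO and 62.4, 68.5 and 70.9 in Q175_TyrobpKO. The ranges overlapped. Tpp1 had a log2 fold change of -0.19 ± 0.06, adjusted p 0.0429 by edgeR, and was not called without the 5 libraries (-0.20, adjusted p 0.183). Without these libraries 0 of the 35 were called, beside 1.4% of all genes. Leaving out any 1 of 17 of the 24 libraries took the edgeR adjusted p of Tpp1 to between 0.0504 and 0.147, and any 1 of 10 libraries, replicates 1 to 5 of TyrobpKO or 2 to 6 of Q175_TyrobpKO, took that of Man2b1 to between 0.0513 and 0.116. The libraries for Tpp1 were WT replicates 1, 2, 4, 5 and 6, TyrobpKO replicates 1, 3, 4, 5 and 6, Q175 replicate 6 and all 6 of Q175_TyrobpKO.

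The other genes that rose in Q175 against WT had these values in the contrast without Tyrobp, none of which passed edgeR's test: log2 fold changes of 0.18 for Ctsl (adjusted p 0.0995), 0.15 for Grn (0.208), 0.08 for Smpd1 (0.524), 0.03 for Gusb (0.912), 0.02 for Lamp2 (0.923) and -0.02 for Ctsd (0.912). Ctsl passed there without WT replicate 6 (0.0458) or TyrobpKO replicate 1 (0.0406). Asah1 had a log2 fold change of -0.19 with an adjusted p of 0.0634 by edgeR and 0.0454 by DESeq2, and 0.0459 or 0.0309 by edgeR without Q175_TyrobpKO replicate 1 or 2. Among the glycosidases the median was 0.05, with 6 of 10 above 0, and among the cysteine proteases -0.05, with 4 of 9 above 0. The summed CPM of the microglial markers had a median of 476 in TyrobpKO and 445 in Q175_TyrobpKO. In the same contrast edgeR called lower 6 of 12 markers of striatal projection neurons, 4 of 12 of astrocytes, 3 of 10 of oligodendrocytes and 3 of 12 of endothelial cells and pericytes. None of these markers was called higher, and all of the astrocyte, oligodendrocyte and endothelial or pericyte markers had estimates below 0. Their part in the values of the lysosomal genes was not tested.

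An interaction term asked if the Q175 allele acted differently on these genes when Tyrobp was absent. None of the 35 genes passed by edgeR or by DESeq2, against 0% of all tested genes by edgeR, and 9 had an unadjusted p under 0.05 by edgeR. The estimate was below 0 in 31 of 35 genes, with a median of -0.13, and those of lowest p were Lamp1 at -0.26 ± 0.09, Lamp2 at -0.26 ± 0.09, Lgmn at -0.21 ± 0.08 and Ctsd at -0.25 ± 0.09. Their adjusted p by edgeR was 0.999. Over all tested genes the median was -0.0025, 49.4% of estimates were above 0, and 707 of 19667 had an unadjusted p under 0.05. All 4 genotypes enter this estimate, including those of both contrasts above, so it is not independent of them. The interaction was below 0 for 18 of 20 microglial, 10 of 10 oligodendrocyte and 10 of 10 choroid plexus markers, with medians of -0.10, -0.16 and -1.16. It was above 0 for all 12 markers of striatal projection neurons, with a median of 0.21. None of these markers was called by edgeR, and their part in the values of the 35 was not tested.

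Loss of Tyrobp without the Q175 allele moved none of the 35 genes past the test. In TyrobpKO against WT, 0 of 35 passed by edgeR and 0 by DESeq2. Of all tested genes, 0.117% were called by edgeR (0.0458% higher, 0.0712% lower). An unadjusted p under 0.05 by edgeR was found for 1 of the 35 (Smpd1, log2 fold change 0.13 ± 0.06) and for 1269 of all 19667 genes. The median log2 fold change was 0.04, and the estimates ran from -0.16 for Cd68 to 0.37 for Ctsk, the collagen-degrading cathepsin K, which had at most 5.05 CPM in any library. No gene separated the groups in either direction, where 0.153% of all genes did so higher and 0.203% lower. Of the 20 microglial markers, 19 had estimates below 0 in this contrast, with a median of -0.10; 3 had an unadjusted p under 0.05 by edgeR, and 0 were called by edgeR or DESeq2. All 12 markers of striatal projection neurons had estimates below 0, with a median of -0.29 and 5 unadjusted p under 0.05 by edgeR. All 10 oligodendrocyte, 8 neuron and 8 cortical excitatory neuron markers were above 0, with medians of 0.14, 0.13 and 0.82. None of these was called by edgeR. The part of any of these markers in the values of the 35 genes was not tested.

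In Q175 striatum without Tyrobp, 27 of the 35 genes had lower estimates than in Q175 with Tyrobp, and none passed edgeR's test. In Q175_TyrobpKO against Q175 the median log2 fold change was -0.09, 11 genes had an unadjusted p under 0.05 by edgeR, and 0.158% of all tested genes were called (0.0458% higher, 0.112% lower). DESeq2 called 3 of the 35, all lower (Ctss, Ctsh and Ctsd), beside 0.264% of all genes. Over all genes the median log2 fold change by edgeR was -0.0013, with 49.7% above 0 and 1187 of 19667 at an unadjusted p under 0.05. The contrast uses the same 6 Q175 libraries as Q175 against WT, so the values of a gene in both are not independent. Ctss (ENSMUSG00000038642, chr3:95526786-95556403, plus strand) gave 53.0, 60.3 and 75.5 CPM in Q175_TyrobpKO against 60.9, 84.3 and 92.8 in Q175. The groups overlapped through Q175 replicate 1, and the other 5 Q175 libraries lay above every Q175_TyrobpKO library. The log2 fold change of Ctss was -0.42 ± 0.09, with an adjusted p of 0.0569 by edgeR and 0.00511 by DESeq2. By edgeR it passed without WT replicate 3 (0.0481), WT replicate 5 (0.0486), TyrobpKO replicate 2 (0.0447), Q175 replicate 1 (0.00356) or Q175_TyrobpKO replicate 6 (0.0144), and with the marker covariates (0.0387).

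Ctsh (ENSMUSG00000032359, chr9:90054152-90076089, plus strand) encodes cathepsin H, an aminopeptidase, and gave 5.40, 7.27 and 8.02 CPM in Q175_TyrobpKO against 7.86, 9.97 and 13.4 in Q175. The overlap was again only with Q175 replicate 1. Ctsh had a log2 fold change of -0.56 ± 0.13, adjusted p 0.106 by edgeR and 0.0171 by DESeq2, and 0.0262 by edgeR without Q175 replicate 1. Ctsd gave 101, 116 and 124 CPM in Q175_TyrobpKO against 114, 144 and 156 in Q175, with the same library as the overlap. The estimate for Ctsd was -0.27 ± 0.06, adjusted p 0.106 by edgeR, 0.0219 by DESeq2 and 0.0132 by edgeR without Q175 replicate 1. Hexa, a subunit of the enzyme that degrades GM2 ganglioside, had -0.20 (edgeR adjusted p 0.616). Ctsc, Cd63 and Gusb had -0.38, -0.28 and -0.26. By role, the median was -0.11 for the cysteine proteases, -0.16 for the membrane proteins, -0.04 for the glycosidases and -0.05 for the lipid hydrolases and activators. None of the 35 separated the groups, where 0.163% of all genes did so higher and 0.3% lower.

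Microglial markers had lower estimates in the same contrast. In Q175_TyrobpKO against Q175, 20 of 20 had estimates below 0, with a median of -0.25, and 1 passed by edgeR (C1qb, a complement chain, log2 fold change -0.39 ± 0.08, adjusted p 0.0221). Their summed CPM ran from 425 to 505 with a median of 445 in Q175_TyrobpKO, and from 458 to 577 with a median of 546 in Q175, where replicate 1 was again the lowest. DESeq2 called 2 of the 20, C1qb and Ptprc, both lower. None of the 20 markers was at 0 in all libraries. Their part in the result was not tested.

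**Figure D3:**
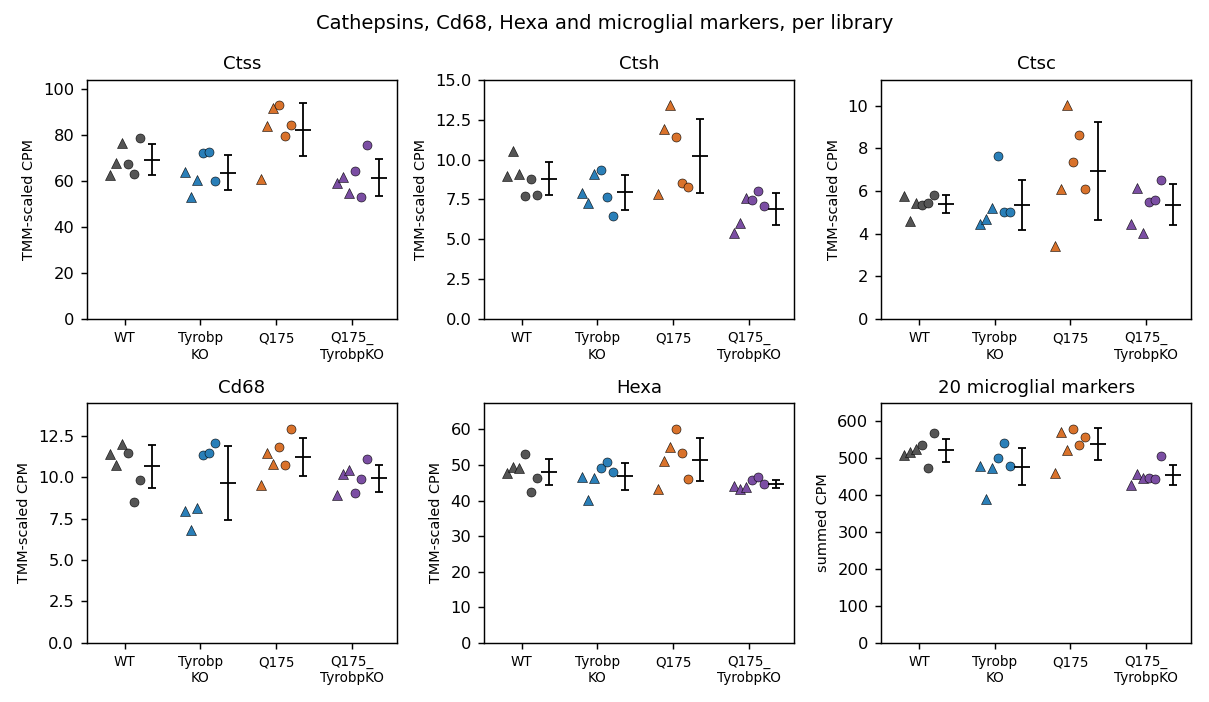
TMM-scaled CPM (vertical axes, from 0) of Ctss, Ctsh, Ctsc, Cd68 and Hexa and the summed CPM of 20 microglial markers, 1 point per library (triangles male, circles female), with the mean and SD of each genotype (n = 6). In Ctss, Ctsh and the microglial sum the Q175_TyrobpKO libraries lie lower than most Q175 libraries, and the first male Q175 library lies at or below the other Q175 libraries.

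**Figure D4:**
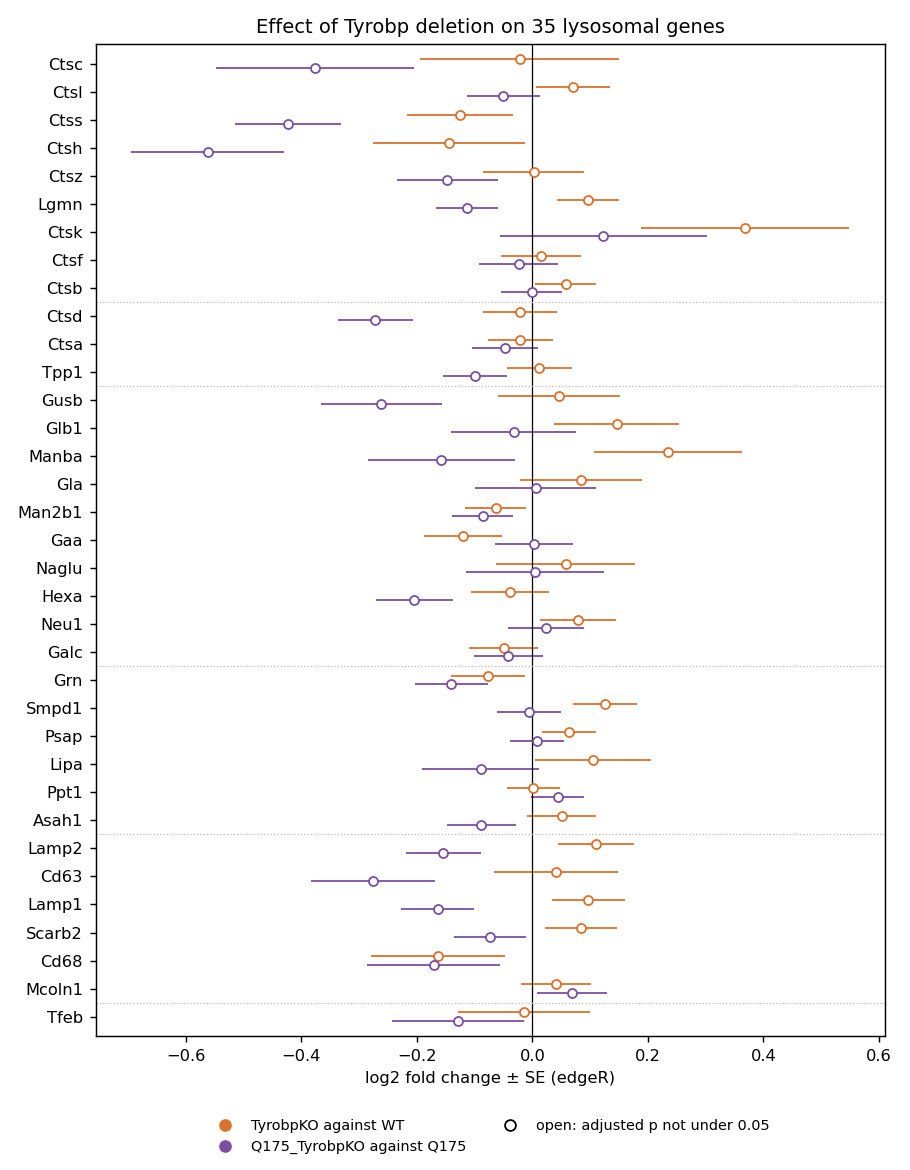
Log2 fold changes with standard errors (horizontal axis) of the 35 lysosomal genes, ordered within groups by role, for TyrobpKO against WT (orange) and Q175_TyrobpKO against Q175 (purple), 6 libraries per genotype. All points are open because none had an adjusted p under 0.05 by edgeR; 27 of 35 estimates of the second contrast lie to the left of 0.

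Across the 4 genotypes, the mean CPM was highest in Q175 for 22 of the 35 genes and lowest in WT for 18. The 35 genes together made up 0.352% to 0.392% of all counts in the WT libraries, 0.359% to 0.397% in TyrobpKO, 0.392% to 0.448% in Q175 and 0.390% to 0.416% in Q175_TyrobpKO. These shares do not use the TMM factors. With them, the median summed CPM of the 35 was 3805 (WT), 3923 (TyrobpKO), 4135 (Q175) and 4020 (Q175_TyrobpKO). Without Psap, the most abundant, the median summed CPM was 2567 (WT), 2655 (TyrobpKO), 2857 (Q175) and 2671 (Q175_TyrobpKO). Single libraries stood low across many genes at once: WT replicate 4 was the lowest of its 6 in 16 genes, TyrobpKO replicate 6 in 17, Q175 replicate 1 in 16 and Q175_TyrobpKO replicate 3 in 17.

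**Figure D5:**
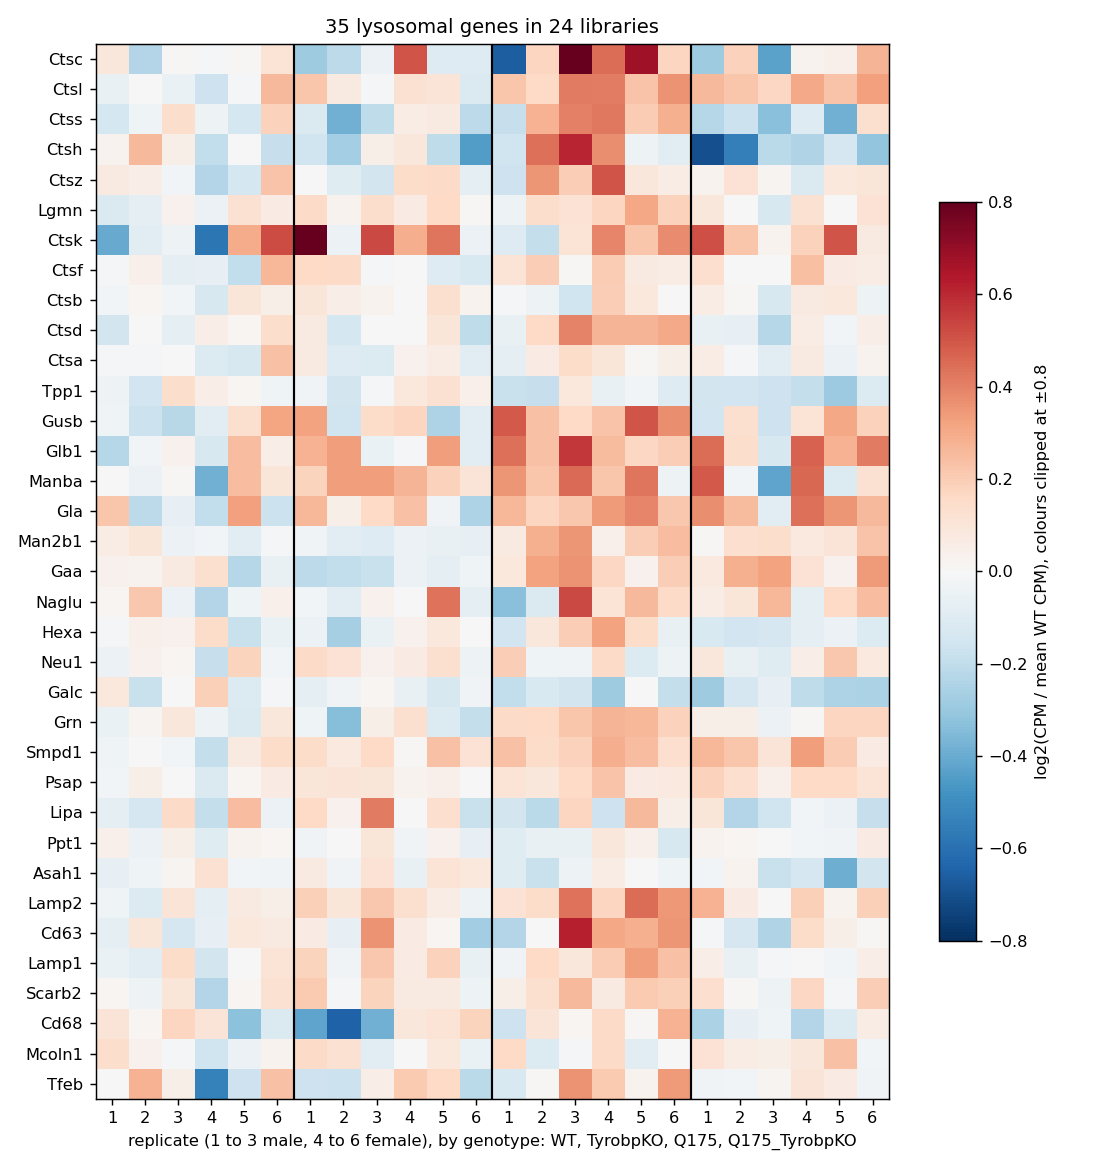
Log2 ratio of CPM to the mean WT CPM (colour, clipped at ±0.8, which 2 of 840 values exceed) for the 35 lysosomal genes (rows, by role) in the 24 libraries (columns, replicates 1 to 6 of each genotype between black lines). The Q175 block is red in most rows. Tpp1, Galc, Ppt1 and Asah1 have Q175 means below those of WT, and other rows, among them Lipa, Ctsb, Mcoln1 and Neu1, are mixed. Q175 replicate 1 is paler or blue in Ctsc, Ctss and Ctsh.

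Among 128 further lysosomal genes in 5 lists, 122 were tested. In Q175 against WT, 11 rose and 5 fell, beside 4.15% higher and 5.47% lower over all tested genes. Their median log2 fold change was 0.06 over the 122. Of 30 tested hydrolases and luminal proteins, 7 rose and none fell, with a median of 0.14: Arsb, an arylsulfatase, went from 41.0 ± 1.91 to 49.2 ± 4.30 CPM (SD, n = 6; log2 fold change 0.26 ± 0.05) and Galns, which desulfates keratan sulfate, had a log2 fold change of 0.63 ± 0.15. Of 31 membrane proteins and channels, 2 rose and 2 fell, among them Laptm4a at 0.18 ± 0.05 and Abcb9, a peptide transporter, at -0.22 ± 0.07. Of 18 subunits of the V-ATPase, the pump that acidifies lysosomes, 1 rose: the accessory subunit Atp6ap1 at 0.23 ± 0.05, while the catalytic subunit Atp6v1a had 0.24 ± 0.08 and an edgeR adjusted p of 0.0523. Of 25 sorting and delivery genes, 3 fell and none rose, including the adaptor Gga2 at -0.46 ± 0.07 and the sorting receptor Sort1 at -0.21 ± 0.05. Of 18 tested genes of the Tfeb family and its regulators, 1 rose, the GTPase Rragb at 0.21 ± 0.07, and Rragd had -0.26 ± 0.11 without passing. In Q175_TyrobpKO against TyrobpKO 3 of the 122 rose and 3 fell, near the shares over all tested genes (2.78% higher and 3.08% lower).

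None of the 122 passed edgeR's test in TyrobpKO against WT or in Q175_TyrobpKO against Q175, beside 0.117% and 0.158% of all tested genes. In each contrast 10 of the 122 had an unadjusted p under 0.05 by edgeR. DESeq2 called 0 of the 122 in the former and 1 in the latter, beside 0.142% and 0.264% of all genes. In Q175_TyrobpKO against Q175 the genes of lowest p within each list, called or not, included Ctso at -0.20 ± 0.07; Laptm5 at -0.27 ± 0.08 and Cd9 at -0.35 ± 0.10; Atp6v0a1 at 0.09 ± 0.05 and Atp6v1g1 at 0.14 ± 0.09; Ap3b1 at -0.15 ± 0.06 and Vps18 at 0.12 ± 0.05; and Zkscan3 at -0.22 ± 0.08 and Rragb at -0.14 ± 0.07. Of 7 cathepsin inhibitors, 3 rose in Q175 against WT, where 4.15% of all tested genes were called higher. Serpina3n, a serine protease inhibitor of reactive astrocytes, had 5.81 ± 1.81 CPM in WT and 11.7 ± 1.89 in Q175 (log2 fold change 1.01 ± 0.19, adjusted p 0.00105 by edgeR). Cst7, which encodes cystatin F, an inhibitor of cathepsins C and L, averaged 0.242 ± 0.137 CPM in WT and 0.208 ± 0.123 in TyrobpKO, against 0.965 ± 0.480 in Q175 and 0.136 ± 0.109 in the double mutant. It rose in Q175 against WT (log2 fold change 1.96 ± 0.50, edgeR adjusted p 0.0120) and was the 1 inhibitor that fell in Q175_TyrobpKO against Q175 (-2.76 ± 0.54, edgeR adjusted p 0.0185), on 164 reads in all Q175 libraries and 23 in all Q175_TyrobpKO libraries. Cst7 was near the floor outside Q175, and whether it passes the filter on low counts without the Q175 libraries was not tested. In Q175_TyrobpKO against Q175, Serpina3n had -0.57 ± 0.19, adjusted p 0.642 by edgeR.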

How the data were processed

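RNA of the striatum of 1 hemisphere per animal was extracted with Trizol and sequenced by a commercial provider, per the labels' protocols. The authors deposited raw read counts per gene, not normalized. The submitters' processing notes name STAR, featureCounts and DESeq2, and the build GRCh38, which is human; the deposited coordinates are mouse, and 54495 of 54532 identifiers were found in GENCODE M21 (GRCm38), as were the coordinates of 34 of the 35 genes (not Ctsf). Neither versions nor use of strand is given in the sources used here, so genes that overlap others (Grn, Ctsb, Ctsz, Ctsa, Ppt1, Glb1, Lamp1, Hexa) are uncertain.

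All 24 libraries entered 1 edgeR 4.0.16 quasi-likelihood fit in R 4.3.3 (TMM, filterByExpr, robust, a sex term, biological coefficient of variation 16.2%), tested on simulated data; adjusted p are Benjamini-Hochberg over 19667 genes and called under 0.05. A log2 fold change is given ± its standard error, and intervals are 95%. DESeq2 1.42.0, other scalings and filters, single sexes and leaving out each library were alternatives. No pair of libraries of 1 genotype agreed within sampling noise (mean chi-square per gene at least 6.89 over 60 pairs). Nothing states litters, so p-values measure the spread between these animals.

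The 35 genes and all lists were chosen with earlier results of these data known. All 35 genes were named; each further list gave its 2 genes of lowest p for Q175 against WT, then likewise for Q175_TyrobpKO against Q175. One such gene is not reported here. C1qb and Ptprc were named after their values were seen. Promoter windows came from RefSeq (GRCm38.p6).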

Additional observations from a re-analysis of the deposited data

Results flagged for a closer look

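In 6 of 152 groups of 6 libraries, the highest or lowest library stood apart from the other 5 by more than Dixon's 95% critical share of the group's range; chance flags about 1 in 20 groups, and among the 140 groups of single lysosomal genes 4 stood apart where 7 would by chance. Ctsc in TyrobpKO replicate 4 was 7.65 CPM. Ctsl and Ctsa in WT replicate 6 were 74.2 and 101 CPM, the highest WT values of both genes. Naglu in TyrobpKO replicate 5 was 11.1 CPM. The summed CPM of the choroid plexus markers was 4231 in Q175 replicate 3, and the summed CPM of the 35 genes was 3798 in Q175_TyrobpKO replicate 3, where the other 5 gave at least 3975.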

How the results depend on the processing

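Q175 against WT called 7 of the 35 genes and 1893 of all 19667 tested: RLE or upper-quartile scaling, a stricter filter and no sex term gave 7 again and DESeq2 gave 9 (of all genes, 2303). No filter on low counts gave 3 (of all genes, 1487), the 12 libraries alone 4 (1303), males alone 1 (759) and females alone 0 (187). Leaving out 1 library gave 4 (without WT replicate 1) to 12 (without Q175 replicate 1), and 1416 to 1986 of all genes. Settings chosen after seeing the data gave 1 (without the 5 libraries high in choroid plexus markers; of all genes, 1130) and 4 (choroid plexus and cortical marker covariates; 1867). Of the 3 called in Q175_TyrobpKO against TyrobpKO, no filter gave 1 (of all genes, 890), males alone 1 (104), females alone 0 (290), the removal of the 5 libraries 0 (287), and leaving out 1 library 1 to 3 (809 to 1218); the setting of the report called 1153. For Q175_TyrobpKO against Q175 the count of 0 became 3 with DESeq2 (of all genes, 52), 1 with the covariates (35) and 0 to 3 when 1 library was left out (24 to 46), against 31 of all genes in the setting of the report. TyrobpKO against WT and the interaction gave 0 throughout, and 0 to 0 when 1 library was left out. No called gene changed sign under any alternative run. The causes of these differences were not tested beyond the smaller number of libraries or the larger number of genes (37470 without a filter) in a setting. The median log2 fold change of the 35 genes in Q175 against WT ran from 0.12 to 0.20 over the alternatives. No paired analysis was possible because the replicate numbers were given in accession order and pair no animals.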
